A study of Homo sapiens with 8 samples.

Results

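The 10 NAD synthesis enzymes described here (NAMPT, NAPRT, QPRT, NMRK1, NADSYN1, NMNAT1, NMNAT2, NMNAT3, NADK and NADK2) were chosen by name, as the enzymes that make NAD+ and phosphorylate it, and not by any measured value. They are 10 of the 20165 gene regions counted in 8 ribosome profiling (Ribo-seq) libraries. Earlier results of these libraries were known when the enzymes were chosen. The cells were OVCAR3, a long-established line from a human ovarian carcinoma. Ribo-seq counts the mRNA fragments that ribosomes shield from nuclease, so a footprint count follows both the amount of an mRNA and how heavily it is translated, and the counts cannot tell the 2 apart. All 10 enzymes passed the filter on low counts in both comparisons.

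NAD+ is the donor of the ADP-ribose group that mono(ADP-ribosyl) transferases attach to proteins (MARylation), and each transfer releases nicotinamide. Cells rebuild NAD+ from nicotinamide through NAMPT, from nicotinic acid through NAPRT, from tryptophan through QPRT and from nicotinamide riboside through NMRK1. The NMNAT enzymes join the resulting mononucleotides to an adenylyl group, with NMNAT1 in the nucleus, NMNAT2 at the Golgi and in the cytosol and NMNAT3 described in mitochondria. NADSYN1 then amidates the products of the acid routes, and NADK in the cytosol and NADK2 in mitochondria phosphorylate NAD+ to NADP+.

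Both experiments addressed the MARylation of ribosomal proteins. In the first, OVCAR3 lines carried a doxycycline-inducible shRNA against their own RACK1, a scaffold protein of the small ribosomal subunit, and an inducible HA-tagged RACK1. The tagged protein was wild type in RACK1-WT and had its MARylation sites mutated in RACK1-Mut. These cells received 1 µg/ml doxycycline. In the second, OVCAR3 cells were transfected with 30 nM of control siRNA (siControl) or siRNA against OARD1 (siTARG1), which encodes TARG1, a hydrolase that takes ADP-ribose off acidic residues. All cells were harvested 48 h later and each of the 4 groups has 2 libraries. Knockdown of the cells' own RACK1 is thus shared by RACK1-WT and RACK1-Mut. Sequencing experiments were repeated on independent biological samples, per the study's methods. Whether each line is a clone and which of the siRNAs to TARG1 was used are not given in the sources used here.

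Coding sequence totals were 6174010 and 6604190 footprints in RACK1-WT, 3798750 and 4174707 in RACK1-Mut, and between 3100947 and 4207939 in the siRNA libraries. Normalized counts of OARD1 were 121.3 and 69.1 in siControl and 5.83 and 6.75 in siTARG1. Those of RACK1 were 23335 and 23594 in RACK1-WT and 17745 and 17274 in RACK1-Mut (log2 fold change -0.42, DESeq2, adjusted p = 1.34e-08). RACK1 was also called lower in siTARG1, with 12320 and 13029 in siControl against 10037 and 11268 (-0.25, DESeq2, adjusted p = 0.00297). The groups of both comparisons thus also differed in RACK1 footprints, whose part in the results was not tested. All 10 markers of ovarian carcinoma cells had footprints in every group. Their summed level, in counts scaled to 1000000 coding footprints per library (CPM), was 10870 to 11546 in RACK1-WT, RACK1-Mut and siControl and 7457 to 8592 in siTARG1, where KRT8, KRT18 and WT1 fell and KRT7 and CDH1 rose. The other 5 markers did not pass the test, and whether this shift had a part in the results on NAD enzymes was not tested. The sum does not show differences of single markers between the experiments. MSLN had 1929 to 3191 raw counts in the RACK1 libraries and 205 to 330 in the siRNA libraries. MUC16 went the other way, with 4958 to 8382 against 6843 to 11994. Markers of leukocytes, endothelium, fibroblasts and neurons were at or near 0 except COL1A1 and CD14.

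Footprint levels of the enzymes were first compared with each other, as CPM per kilobase of counted coding sequence. QPRT and NAMPT were the highest in all 4 groups. QPRT, which turns quinolinate into the mononucleotide of nicotinic acid, stood at 236 ± 9.62 (SD, n = 2) CPM per kilobase in RACK1-WT, 246 in both RACK1-Mut libraries, 470 ± 6.29 in siControl and 423 ± 15.3 in siTARG1. NAMPT, the rate-limiting enzyme of nicotinamide salvage, followed at 103 ± 4.34, 102 ± 7.42, 70.2 ± 0.219 and 115 ± 9.55 in the same order. The libraries of QPRT and NAMPT did not overlap in any group, nor did those of NAMPT and the enzyme ranked below it. The counted length of QPRT was 400 bases against 891 in the annotation of its transcript, and that of NADK was 1943 bases, merged from 4 transcripts, against 1338, so their places in this order are less certain than the others.

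**Figure D1:**
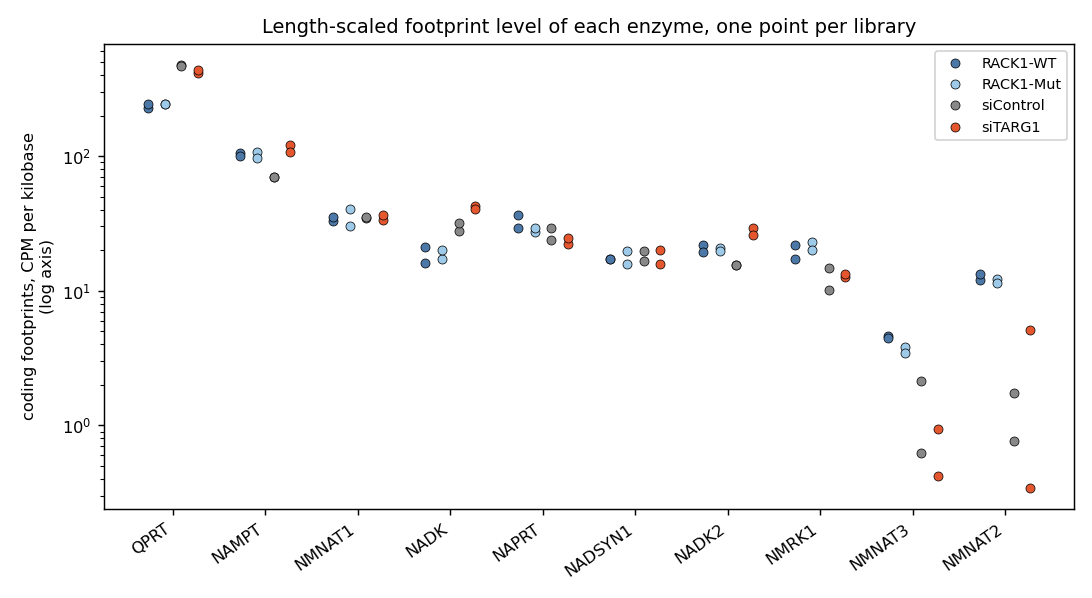
CPM per kilobase of counted coding sequence (log axis) for each of the 10 enzymes, with 1 point per library and the 4 groups in separate colours. QPRT and NAMPT lie above all others in every group, and NMNAT2 and NMNAT3 lie lowest.

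Below NAMPT the order depended on the experiment. In RACK1-WT, NMNAT1 (34.1 ± 1.75) and NAPRT (33.1 ± 5.35) overlapped each other, and a further run of NADK2 (20.7 ± 1.68), NMRK1 (19.6 ± 3.31), NADK (18.5 ± 3.61) and NADSYN1 (17.2 ± 0.12) overlapped from neighbour to neighbour. NMNAT2 (12.6 ± 0.962) and NMNAT3 (4.53 ± 0.0757) then stood apart at the bottom. RACK1-Mut gave the same top 4 and the same bottom 3, with NMRK1 and NADK2 exchanged but overlapping. In siControl, NADK (29.8 ± 2.91) ranked at place 4 and overlapped NAPRT (26.5 ± 3.66), whereas in siTARG1 NADK (41.4 ± 1.63) ranked at place 3 and lay above NMNAT1 (35.01 ± 1.89) without overlap. The NMNAT enzymes of the cytosol and mitochondria were lowest in both siRNA groups, at 1.26 ± 0.688 for NMNAT2 and 1.38 ± 1.06 for NMNAT3 in siControl, where their libraries overlapped.

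The question of the first comparison was whether losing the MARylation sites of RACK1 changed the footprints of these enzymes. None of the 10 passed the test in RACK1-Mut against RACK1-WT (DESeq2, adjusted p = 1.00 for each), in a comparison where 10 of 12520 genes tested (0.0799%) did, all of them lower. No enzyme had an unadjusted p under 0.05 either, against 1.64% of all genes, and edgeR's quasi-likelihood test called 0 of the 10. Their log2 fold changes ran from -0.34 for NMNAT3 to 0.12 for NMRK1 with a median of -0.03, and the median of all genes was -0.0017.

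NAMPT showed how close the groups were. Its normalized counts were 799 and 744 in RACK1-WT and 785 and 712 in RACK1-Mut, which overlapped, and its log2 fold change was -0.04 with a 95% interval of -0.26 to 0.17. QPRT had an interval of similar width, -0.22 to 0.28 around 0.03, from 468 and 490 counts against 489 and 492. NMNAT1, NADSYN1, NADK and NADK2 lay between -0.05 and 0.04, with standard errors of 0.196 to 0.222.

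Libraries of the RACK1 groups did not overlap for 3 of the 10 enzymes, all lower in RACK1-Mut, and the same held in either direction for 37.6% of all genes (18.7% higher). NAPRT, which starts the salvage of nicotinic acid, had 254 and 316 normalized counts in RACK1-WT and 230 and 249 in RACK1-Mut, a log2 fold change of -0.25 (SE 0.175, unadjusted p = 0.150 by DESeq2). NMNAT2, the cytosolic NMNAT enzyme, had a log2 fold change of -0.12 with an interval of -0.78 to 0.53. NMNAT3 had only 23 and 21 raw counts in RACK1-WT and 12 and 10 in RACK1-Mut, and its interval of -1.58 to 0.89 would hold a change of more than a log2 unit in the lower direction.

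**Figure D2:**
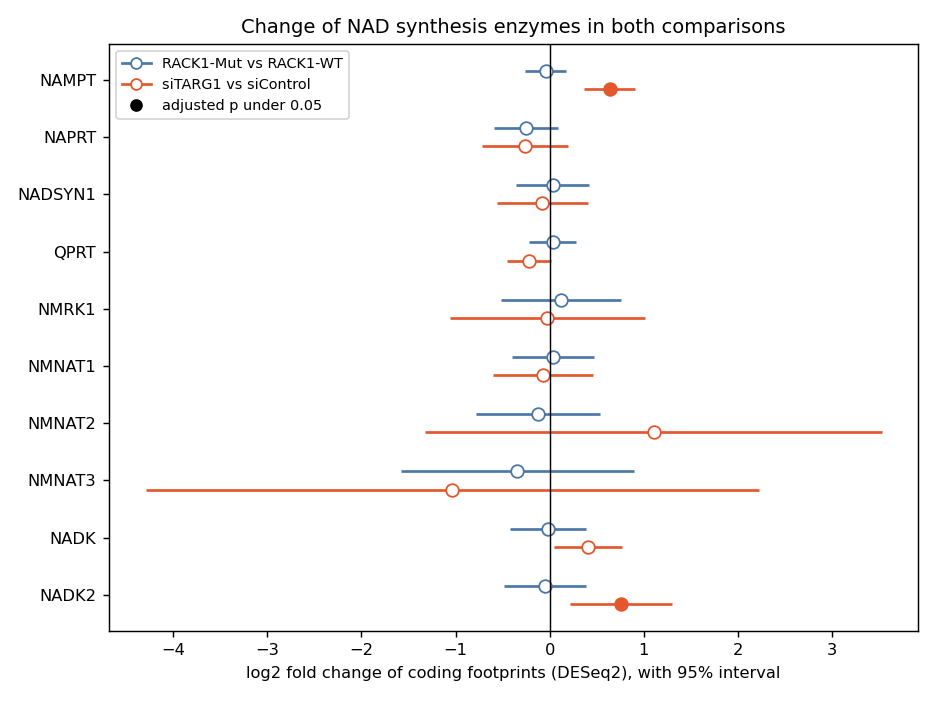
Log2 fold change of each enzyme (x axis, coding footprints, DESeq2) with its 95% interval, for RACK1-Mut against RACK1-WT in blue and siTARG1 against siControl in orange, with filled points at an adjusted p under 0.05. Only NAMPT and NADK2 in siTARG1 are filled, and the intervals of NMNAT2 and NMNAT3 are the widest.

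The second comparison asked the same of TARG1 knockdown. NAMPT and NADK2 rose in siTARG1 and no enzyme fell, so 2 of the 10 were called, against 16.4% of the 12056 genes tested (7.18% higher and 9.19% lower). At an unadjusted p under 0.05 the count was 3 of 10 with NADK, against 26% of all genes. The median log2 fold change of the 10 was -0.05 and that of all genes was 0.0031. Their share of calls was near that of all genes. Libraries of siControl and siTARG1 did not overlap for 5 of the 10 (NAMPT, NADK and NADK2 higher, NAPRT and QPRT lower), which was the case for 62.6% of all genes (31.2% higher).

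NAMPT (ENSG00000105835, hg19 chr7:105888744-105926412, minus strand) had 382 and 384 normalized counts in siControl and 627 and 562 in siTARG1. Both siTARG1 libraries lay above both controls. The difference was 1.55-fold, a log2 fold change of 0.64 with a standard error of 0.137 (DESeq2, adjusted p = 7.15e-05). Without siTARG1 replicate 1 the value was 0.56 and the call was lost (adjusted p = 0.138), and without any other single library it was kept. The annotation names 3 NAMPT pseudogenes, and reads with many hits were allowed, so some of the NAMPT count may belong to near-identical copies.

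NADK2, the mitochondrial NAD kinase (ENSG00000152620, hg19 chr5:36192691-36242381, minus strand), had 76.5 and 76.3 normalized counts in siControl and 137 and 122 in siTARG1. The groups did not overlap, and the controls differed from each other by less than 1 count. Its log2 fold change was 0.76 (SE 0.278, 1.69-fold, DESeq2, adjusted p = 0.0387). This call was lost without any 1 of the 4 libraries, with adjusted p between 0.298 and 0.548 and log2 fold changes between 0.67 and 0.84.

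NADK, the cytosolic NAD kinase, had 200 and 229 normalized counts in siControl and 290 and 277 in siTARG1. It was higher in both siTARG1 libraries but did not pass the test (log2 fold change 0.41, SE 0.184, DESeq2, adjusted p = 0.116). By edgeR's quasi-likelihood test it was called, with an adjusted p of 0.0174. That test called 3470 of the 12056 genes in this comparison, against 1974 by DESeq2. Of the 10 enzymes, 3 (NAMPT, NADK and NADK2) lay above their controls without overlap, a share near the 31.2% of all genes tested. This count does not set the enzymes apart from other genes.

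None of the enzymes of the acid routes (QPRT, NAPRT and NADSYN1) passed the DESeq2 test in siTARG1. QPRT had 701 and 688 normalized counts in siControl and 578 and 614 in siTARG1 (log2 fold change -0.22, SE 0.12, adjusted p = 0.208), and edgeR called it lower with an adjusted p of 0.0474. NAPRT had 183 and 150 against 132 and 147, which did not overlap by a narrow margin (log2 fold change -0.26, adjusted p = 0.510 by DESeq2). NADSYN1, the amidating enzyme shared by both acid routes, had 131 and 155 against 150 and 119 and overlapped. Its log2 fold change was -0.08 with an interval of -0.56 to 0.41.

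The remaining enzymes gave no called difference. NMNAT1, the nuclear NMNAT enzyme, had 107 and 110 normalized counts in siControl and 99.1 and 108 in siTARG1, a log2 fold change of -0.07 with an interval of -0.60 to 0.46, and 5 pseudogenes of it are named in the annotation. NMRK1, the nicotinamide riboside kinase, was at 32.5 and 22.7 against 26.6 and 28.1, with an interval of -1.06 to 1.01 around -0.02. NMNAT2 and NMNAT3 were too thinly covered to receive an adjusted p in this comparison.

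**Figure D3:**
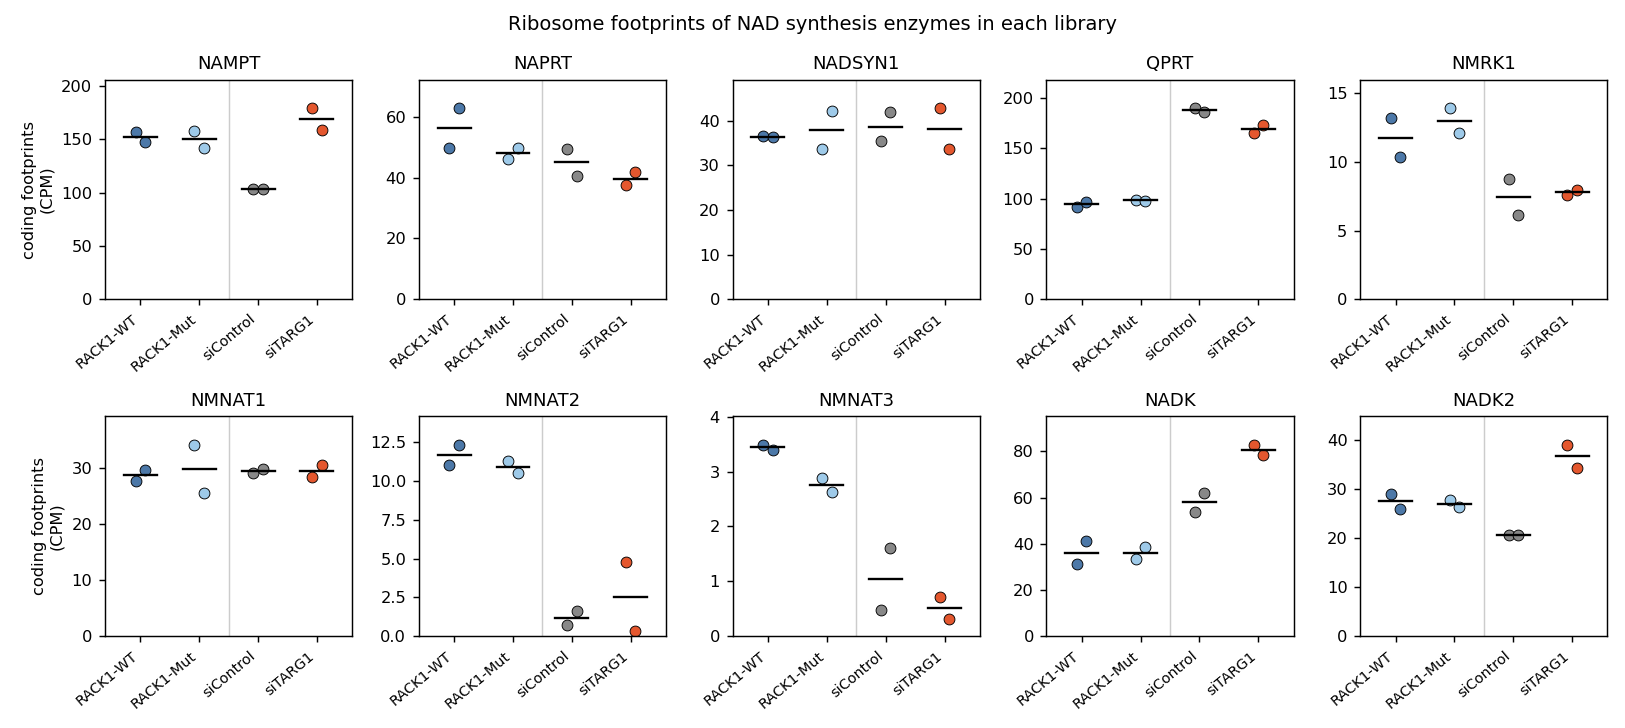
CPM of coding footprints (y axis, starting at 0) of each enzyme in each of the 8 libraries, with horizontal bars at the group means and a grey line between the 2 experiments. NAMPT, NADK and NADK2 sit higher in both siTARG1 libraries than in both siControl libraries, and NMNAT2, NMNAT3 and NMRK1 sit higher in the RACK1 libraries than in the siRNA libraries.

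Whether the 2 comparisons differed was tested with all 8 libraries in 1 fit, as the siTARG1 log2 fold change minus the RACK1-Mut log2 fold change. For NAMPT this difference was 0.69 (SE 0.16, DESeq2, adjusted p = 0.000344), and it remained past the threshold without any 1 of the 8 libraries, with values from 0.60 to 0.76. NAMPT was the 1 enzyme of 10 called, and 12.3% of the 12955 genes tested were called (5.43% higher). NADK2 gave a larger value with a larger error, 0.81 (SE 0.317, adjusted p = 0.0645), and edgeR called it with an adjusted p of 0.0085. For NADK the difference was 0.43 (adjusted p = 0.286). The fits of the 2 comparisons share no libraries, but the experiments also differ in their lines and treatments.

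The 3′ UTRs of the enzymes were searched for the 7-base words that set the called genes of the TARG1 comparison apart. Among 11059 words ranked by their share in called against not called genes, GAATATA came first for genes called higher, held by 33.5% of them and 13.8% of genes not called. Among 3′ UTRs of 1393 to 5570 bases, a band set around that of NAMPT, the shares were 40.9% and 20.6%. GAACATA came first for genes called lower (21.8% against 8.61%). The words ranked next, TGAATAT and TGAACAT, overlap these by 6 bases. Only the mRNA strand was searched. The words were found from the same calls that they describe, so the shares are descriptions, and a match is not evidence of a site. Of the 10 enzymes, 3 held any of the 4 words in the annotated 3′ UTR of the transcript examined. The matches are shown with 10 bases on either side and the word in capitals, each in the 3′ UTR on the minus strand of hg19, because NAMPT is among them.
NAMPT, chr7:105890676-105890702: ttccactataGAATATAtacataaatg
NMNAT2, chr1:183217792-183217818: gtaatggtgaTGAATATgctctgccaa
NMNAT2, chr1:183219686-183219712: ggcctgacaaGAACATAttgtttccct
NMRK1, chr9:77676180-77676206: tccactttctGAACATAgctctataac

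The NAMPT match lies at position 837 of a 3′ UTR of 2785 bases in ENST00000222553, and NAMPT is the enzyme with the smallest adjusted p in siTARG1. NMNAT2 holds 1 word of each kind and had no adjusted p. NMRK1 holds GAACATA and the overlapping TGAACAT, and its log2 fold change was -0.02. NADK2, the other enzyme that rose, holds none of the 4, nor do NADK, NMNAT1, NMNAT3, NADSYN1, NAPRT and QPRT, which says only that these letters are absent from the windows read. Of the other genes described here with changes in siTARG1, TNKS2 holds 3 of the 4 words, all but TGAACAT. TNKS, PARP14, ALDH1L2 and GLUD1 hold TGAATAT, SIRT1 and IDH1 hold TGAATAT and TGAACAT, and OARD1 holds TGAACAT. The other genes of the lists below that were called in siTARG1 hold none.

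The levels of several enzymes differed between the RACK1 and the siRNA experiments. The engineered lines, doxycycline and transfection differ between them, along with anything else that set the experiments apart, and cannot be told apart, so these are values without a test. In CPM, 5 of the 10 enzymes did not overlap between the 4 libraries of each experiment, which was so for 39.8% of 12955 genes. NMNAT2 was at 10.5 to 12.3 in the RACK1 experiment and at 0.318 to 4.75 in the siRNA experiment, a 6.11-fold difference of the means. Without siTARG1 replicate 1, left out after the data were seen, the difference was 12.8-fold. NMNAT3 (2.63 to 3.48 against 0.318 to 1.61) and NMRK1 (10.4 to 13.9 against 6.13 to 8.79) were also higher in the RACK1 experiment. NADK (31.0 to 41.0 against 54.0 to 82.7) and QPRT (91.8 to 98.2 against 165 to 190) were lower there, by 1.92-fold and 1.85-fold. NAMPT, NMNAT1, NAPRT, NADSYN1 and NADK2 overlapped.

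The 3 NMNAT enzymes carry out the same reaction, so their mix was described as shares of their summed length-scaled footprints. NMNAT1 made up 66.5% to 71.7% and NMNAT2 21.6% to 25.2% in the RACK1 libraries. In the siRNA libraries NMNAT1 made up 84.7% to 97.9%. NMNAT2 there rested on 3 and 5 raw counts in siControl and on 20 and 1 in siTARG1. The 20 counts of siTARG1 replicate 1 (95% exact Poisson interval 12.2 to 30.9, counting error only) lie outside the intervals of the other 3 (at most 11.7). Scaled to depth, the interval of siTARG1 replicate 1, 2.90 to 7.34 CPM, overlapped that of siControl replicate 2, 0.524 to 3.76 CPM. The siTARG1 libraries differ from each other more than they do, as a group, from the controls. NMNAT3 rested on 1 to 5 raw counts in each siRNA library, which cannot show a difference.

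Summed over all 10 enzymes, footprints made up 0.0448% to 0.0466% of coding footprints in the RACK1 libraries. The sum was 0.0492% and 0.0494% in siControl and 0.0587% and 0.0560% in siTARG1, and the siTARG1 libraries lay above the siControl libraries without overlap. Without NAMPT, a sum added after the data were seen, the values were 0.0388% and 0.0390% in siControl and 0.0408% and 0.0401% in siTARG1. NAMPT thus made up most of the difference in these shares. They are scaled to library totals and not by the size factors of the tests. Replicate 1 of siControl and siTARG1 had totals of 4207939 and 4207861 but size factors of 1.138 and 1.201. Shares of siTARG1 thus stand higher than size factors would place them, and the small remaining rise is not read as a change.

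Footprints in 5′ UTRs mark ribosomes upstream of the coding sequence. Over all genes they were 3.81% to 4.29% of exonic footprints in the 8 libraries. Pooled over the 8 libraries, NADK had 6.05% (114 of 1883, 95% Wilson interval 5.06% to 7.22%) and NMRK1 6.58% (26 of 395, 4.53% to 9.47%). In single libraries NADK ran from 2.30% to 9.29%, both in RACK1-WT, and NMRK1 from 2.13% to 17.95%. NMNAT3 had 15.4%, but from 14 of 91 footprints (9.39% to 24.2%). NAMPT had 1.75% (92 of 5257, 1.43% to 2.14%) and stood between 1.05% and 2.25% in every library. QPRT had 0 of 4678, which allows a share of up to 0.0641% if 3 counts are taken as the most that a count of 0 allows (Wilson upper limit 0.0821%), and the counted region of NADK2 has no 5′ UTR. These intervals cover counting error only. 5′ UTR lengths differ between genes, so the shares do not compare the enzymes base for base.

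For the 7 enzymes with a mean of at least 100 normalized counts, the genes with the most similar log2 profile over the 8 libraries were looked up among 6718 genes of that level. The 8 points fall into 2 experiments that share cells and preparation, so these correlations are descriptions. Nearest to NAMPT were ACAT1 (Pearson r 0.987), BTG3 and PIK3R4. Nearest to NADK2 were EIF5A (0.983), PSMB9 and ATP6V1E1, and nearest to NADK were PCNT (0.998), IMPDH1 and MAT2A. QPRT was closest to YKT6 (0.997), PLD3 and GLIS3. NADSYN1, closest to SIKE1 (0.880), MCRS1 and RELCH, and NMNAT1, closest to CAB39 (0.915), HMG20B and RIOK3, had lower values. Among the 21 pairs of these enzymes, r ran from -0.70 for NAPRT with NADK to 0.91 for NAMPT with NADK2, and NADK with QPRT had 0.86. Both NADK and QPRT were lower in the RACK1 experiment, but in siTARG1 their log2 fold changes were 0.41 and -0.22.

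Genes around NAD synthesis were then read as 3 lists. In RACK1-Mut, 0 of 24 tested genes of other NAD pathways, 0 of 22 NAD-consuming enzymes and 0 of 24 NADPH-producing and NADPH-dependent genes passed the test by DESeq2 or by edgeR, and none had an unadjusted p under 0.05. Their median log2 fold changes were 0.001, -0.05 and -0.06, beside -0.0017 for all genes.

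The list of other NAD pathway genes covers tryptophan breakdown, nicotinamide disposal, transport and repair of NAD. In siTARG1, 21 of its 34 genes were tested, of which 3 rose and 0 fell. Of tryptophan breakdown only IDO1 and AFMID were tested, and of nicotinamide disposal neither NNMT nor AOX1. The median log2 fold change was 0.13 beside 0.0031 for all genes, of which 16.4% were called (7.18% higher). AFMID, which acts early in the route from tryptophan, had 87.9 and 70.3 normalized counts in siControl and 148 and 147 in siTARG1 (log2 fold change 0.89, SE 0.269, DESeq2, adjusted p = 0.00831). SLC29A1, the equilibrative nucleoside transporter of the plasma membrane, had 145 and 105 against 229 and 188 (0.73, adjusted p = 0.0165). SLC29A3, a nucleoside transporter of lysosomes named here after its values were seen, had 17.6 and 13.1 against 45.8 and 41.6 (2.83-fold, adjusted p = 0.0301). In each case both siTARG1 libraries lay above both controls, and no call of the list was kept when any 1 library was left out.

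Of 20 tested NAD-consuming enzymes, 3 rose and 1 fell in siTARG1, with a median of 0.10, beside 16.4% of all genes called. The tankyrases, which build poly(ADP-ribose), both rose. TNKS went from 251 and 246 to 435 and 425 normalized counts (log2 fold change 0.79, SE 0.158, DESeq2, adjusted p = 1.34e-05), and TNKS2 from 323 and 300 to 521 and 458 (0.65, adjusted p = 0.000278). PARP14, a mono(ADP-ribosyl) transferase, rose by a smaller amount, from 2571 and 2097 to 2788 and 2773 (0.25, adjusted p = 0.0426). SIRT1, a NAD+-dependent deacetylase, fell from 113 and 123 to 51.6 and 65.2 (-1.02, adjusted p = 0.00797). With each of the 4 libraries left out in turn, the call of TNKS was kept every time, that of TNKS2 was lost without siControl replicate 2 or siTARG1 replicate 1 (highest adjusted p = 0.205), that of PARP14 was kept only without siControl replicate 1, and that of SIRT1 was lost every time (adjusted p from 0.0937 to 0.370).

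NADPH, the reduced form of the product of the NAD kinases, is made or used by the genes of the last list. Of 23 tested, 4 rose and 6 fell in siTARG1, with a median of -0.15, beside 7.18% of all genes called higher and 9.19% called lower. IDH1, the cytosolic NADP+-dependent isocitrate dehydrogenase, went from 10693 and 9948 to 3236 and 3305 normalized counts (log2 fold change -1.66, SE 0.0657, DESeq2, adjusted p = 5.37e-137). ME1, the cytosolic malic enzyme, went from 1061 and 973 to 350.4 and 349.7 (-1.54, adjusted p = 1.71e-33). ALDH1L2, a mitochondrial folate enzyme that yields NADPH, rose from 126 in both controls to 217 and 209 (0.76, adjusted p = 0.00487), and GSR, which spends NADPH to reduce glutathione, rose from 475 and 453 to 747 and 723 (0.66, adjusted p = 2.55e-06). The other calls, MTHFD2 and GLUD1 higher and TXNRD1, POR, NQO1 and PGD lower, lay between -0.54 and 0.41. The calls of IDH1, ME1, GSR and POR were kept without any 1 library, that of TXNRD1 was lost without siTARG1 replicate 1, and those of ALDH1L2, MTHFD2, GLUD1, NQO1 and PGD were lost without any 1 of the 4.

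**Figure D4:**
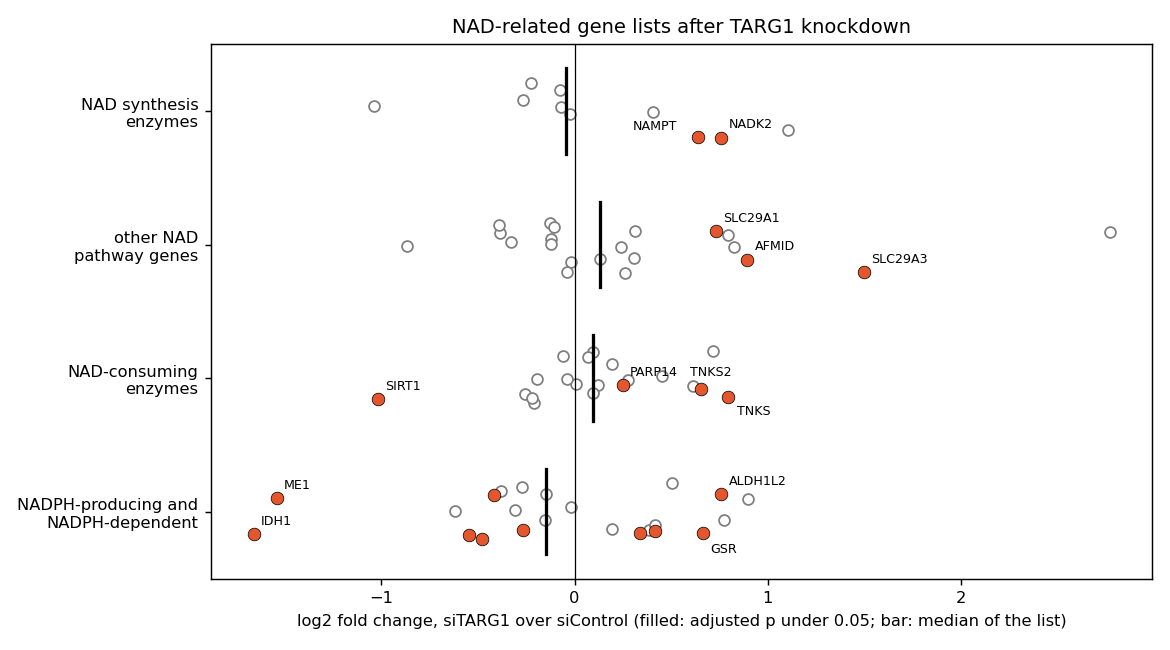
Log2 fold change in siTARG1 over siControl (x axis) of the 10 NAD synthesis enzymes and of 3 lists of related genes, with 1 point per gene tested, filled at an adjusted p under 0.05, and a vertical bar at each list's median. The medians lie between -0.15 and 0.13, and IDH1 and ME1 lie farthest below 0.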

How the data were processed

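The 10 enzymes and the other gene lists were chosen with earlier results of these data known. Ribosome footprints were prepared by the authors with RNase I, linkers with unique molecular identifiers and rRNA depletion. Per the authors' methods, contaminant reads were removed with Bowtie 1.1.2 and the rest aligned to transcripts with TopHat2 2.1.1, many hits allowed. Whether identifiers were collapsed is not given in the sources used here. The authors deposited raw footprint counts per gene region, made with Plastid on hg19 (GRCh37), GENCODE release 24. Per the file headers, reads of 26 to 36 nt were assigned at 14 nt counted from the 5′ end. The methods instead count the offset from the 3′ end, which bears on the edges of coding sequences. The deposited RPKM columns were not used. RNA-seq was not analysed here.

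Symbols were taken from GENCODE release 44 lifted to GRCh37 (19633 of 20165 regions matched, 452 with more than 1 symbol left out of the lists). Of 2 QPRT regions, the one without coding length was left out. Coding counts were tested with DESeq2 1.42.0 in R 4.3.3 (Wald test, median-of-ratios size factors within each comparison of 4 libraries, genes with at least 10 summed counts, Benjamini-Hochberg adjusted p under 0.05 over all genes tested), after the study's methods, and the script was tested on simulated data. Normalized counts are counts over size factors. The difference between comparisons was an interaction term over 8 libraries. Alternatives were edgeR 4.0.16, TMM factors, other filters, exon counts, 1 fit of all libraries, a replicate block and each library left out. All 10 enzymes are named. For each other list the rule named up to 4 called genes, those with the largest change at a mean of at least 50 counts. SLC29A3 (mean 29.5), the other called NADPH genes and genes named only for whether they were tested fall outside this rule. The genes most similar to NAPRT are not reported here.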

Additional observations from a re-analysis of the deposited data

How the results depend on the processing

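In the RACK1 comparison no NAD synthesis enzyme and no gene of the 3 other lists was called under any alternative tried. The number of all genes called there was 30 with edgeR, 6 with the replicate block and between 1 and 3 without any 1 library. In the TARG1 comparison, edgeR called 4 of the 10 enzymes and 6 genes of other NAD pathways. It called 3470 of all 12056 genes tested, against 1974 by DESeq2. The fit of all 8 libraries called 6 genes of other NAD pathways. With 1 library left out, 0 to 1 enzymes, 0 genes of other NAD pathways, 1 to 3 NAD-consuming enzymes, 4 to 5 NADPH genes and 564 to 744 genes in all were called. In those fits the group left with 1 library was assumed to vary like the other groups. For the difference between the comparisons, edgeR called 2 enzymes.

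Whether same-numbered libraries share more than a number, such as a preparation, is not given in the labels. Coding footprints were 4207939 and 4207861 in replicate 1 of siControl and siTARG1, and 3100947 and 3145173 in replicate 2. Between same-numbered libraries, the correlation of deviations from the group means was 0.0829 over 9055 genes in the RACK1 comparison. In the TARG1 comparison it was 0.0306 over 8148 genes. With the replicate block, the TARG1 comparison called 1 enzyme (NAMPT), 0 genes of other NAD pathways, 2 NAD-consuming enzymes and 1125 genes in all, and NADK2 had an adjusted p of 0.168.

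The direction of NAMPT, NADK, NADK2, NAPRT and QPRT in siTARG1 was the same under every alternative run. The values that changed sign were those below, mostly near 0, with NMNAT2 and NMNAT3 farther from it. In RACK1-Mut, NADK was 0.0066 with exon counts, and without 1 library NADK ran from -0.20 to 0.19, NMNAT1 from -0.18 to 0.22, NAMPT from -0.12 to 0.025, NADSYN1 from -0.14 to 0.19, NADK2 from -0.13 to 0.049 and NMRK1 from -0.0496 to 0.31. In siTARG1, NMRK1 was 1.49e-05 with the replicate block, and without 1 library NMRK1 ran from -0.25 to 0.26 and NADSYN1 from -0.26 to 0.0773. For the difference, the ranges were -0.29 to 0.12 for NMNAT1, -0.17 to 0.15 for NAPRT, -0.29 to 0.0647 for NADSYN1, -0.36 to 0.16 for NMRK1, -1.37 to 0.45 for NMNAT3 and -1.75 to 2.15 for NMNAT2. The cause of these changes was not tested. No alternative moved the median of all genes by over 0.1.

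NMNAT2 and NMNAT3 had 1 to 20 raw counts in each siRNA library, too few for a comparison, although RACK1-Mut libraries of similar depth held 10 to 47.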
